A study of Lytechinus variegatus with 23 samples.

Results

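The genes described here move calcium, protons and bicarbonate across membranes, or sense and bind calcium inside the cell. They were taken by name from a count table of whole embryos of the green sea urchin Lytechinus variegatus. The names are those of the matched gene in the purple sea urchin Strongylocentrotus purpuratus. Of 27231 gene IDs, 71 carried a name of the families Slc4a, Slc26a, Slc9a, Otop, Hvcn, Atp6v and Atp6a, Slc8a, Slc24a, Stim, Orai, Calm, Calr or Canx. They carry 44 different names, and 46 of the IDs share a name with another ID, so reads of closely related copies may be split between them. Of the 71, 69 had enough counts to be tested, and the other 2 were Slc4a11 IDs (L_var_18413 and L_var_18535). A name taken with Slc4a, Slc4a1ap, belongs to an adaptor protein and not to a transporter.

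The sea urchin larval skeleton is calcium carbonate, laid down as amorphous mineral inside the primary mesenchyme cells (PMCs), the skeletogenic cells of the embryo. Each step of making carbonate from bicarbonate or carbon dioxide releases protons, so a cell that mineralises has to take up calcium, supply bicarbonate and export acid together. In S. purpuratus, the bicarbonate transporter Slc4a10 and the proton channel Otop2l are both known from PMCs. Alizarin red is a dye that binds calcium and is widely used to stain mineral.

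The study sampled control and alizarin-treated whole embryos at 4 times, 12, 18, 24 and 30 hpf (hours after fertilisation), with no genotype named. There were 3 libraries in a group, A, B and C, but only B and C for alizarin at 18 hpf, which makes 23. The labels used here give neither the dose nor the time when the dye was added, and do not say whether libraries of a group came from separate cultures, so the p-values speak of the variation among these libraries only, part of which may be technical. Total counts ran from 8194215 to 11730004 per library, and the 71 genes held 0.22% to 0.572% of them. Levels are given as CPM, the counts of a gene scaled to a common library size with TMM. They are not divided by gene length, so levels of different genes cannot be compared. A gene was called where its edgeR quasi-likelihood p, adjusted by Benjamini-Hochberg over all 18419 genes tested, was under 0.05. Calls come from 1 fit of all 23 libraries without a block for the letter, unless another fit is named.

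Alizarin-treated embryos had fewer transcripts of a small set of these genes, and the calls fell at 24 and 30 hpf. At 24 hpf 2 of 69 were lower, the bicarbonate transporter Slc4a10 (L_var_01691) and the proton channel Otop2L (L_var_02543), and none was higher. At 30 hpf 3 were lower, the sodium-calcium exchanger Slc8a3, the proton pump subunit Atp6v1a2 and the sodium-calcium-potassium exchanger Slc24a4 (L_var_10592), and none was higher. Over all genes tested, 0.722% were called lower and 0.119% higher at 24 hpf, and 2.2% lower and 1.12% higher at 30 hpf. The median log2 change over the 69 was -0.02 at 24 hpf and -0.07 at 30 hpf, against 0.02 and 0.03 over all genes. No member was called at 12 or 18 hpf, where 0.0977% and 0% of all genes were called by edgeR. At an unadjusted p under 0.05 there were 13 of 69 members at 12 hpf (18.8%) and 3 at 18 hpf (4.35%), against 16.1% and 5.67% of all genes. DESeq2 called 1 at 12 hpf (CalmL1 L_var_15892, lower) and 0 at 18 hpf, where it called 4.42% and 0.271% of all genes. All treated libraries lay below all controls for 10 of 69 members at 24 hpf (14.5%) and 19 at 30 hpf (27.5%), against 10.7% and 17.8% of all genes. They lay above all controls for 4 (5.8%) and 7 members (10.1%), against 6.72% and 14.5% of all genes. For no member did edgeR call a change of the treatment difference over the 4 times (0.505% of all genes). At an unadjusted p under 0.05 there were 9 of 69 members (13%), against 12.4% of all genes. DESeq2 called Slc8a3 and Slc4a10 L_var_01691, where it called 4.16% of all genes.

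**Figure D1:**
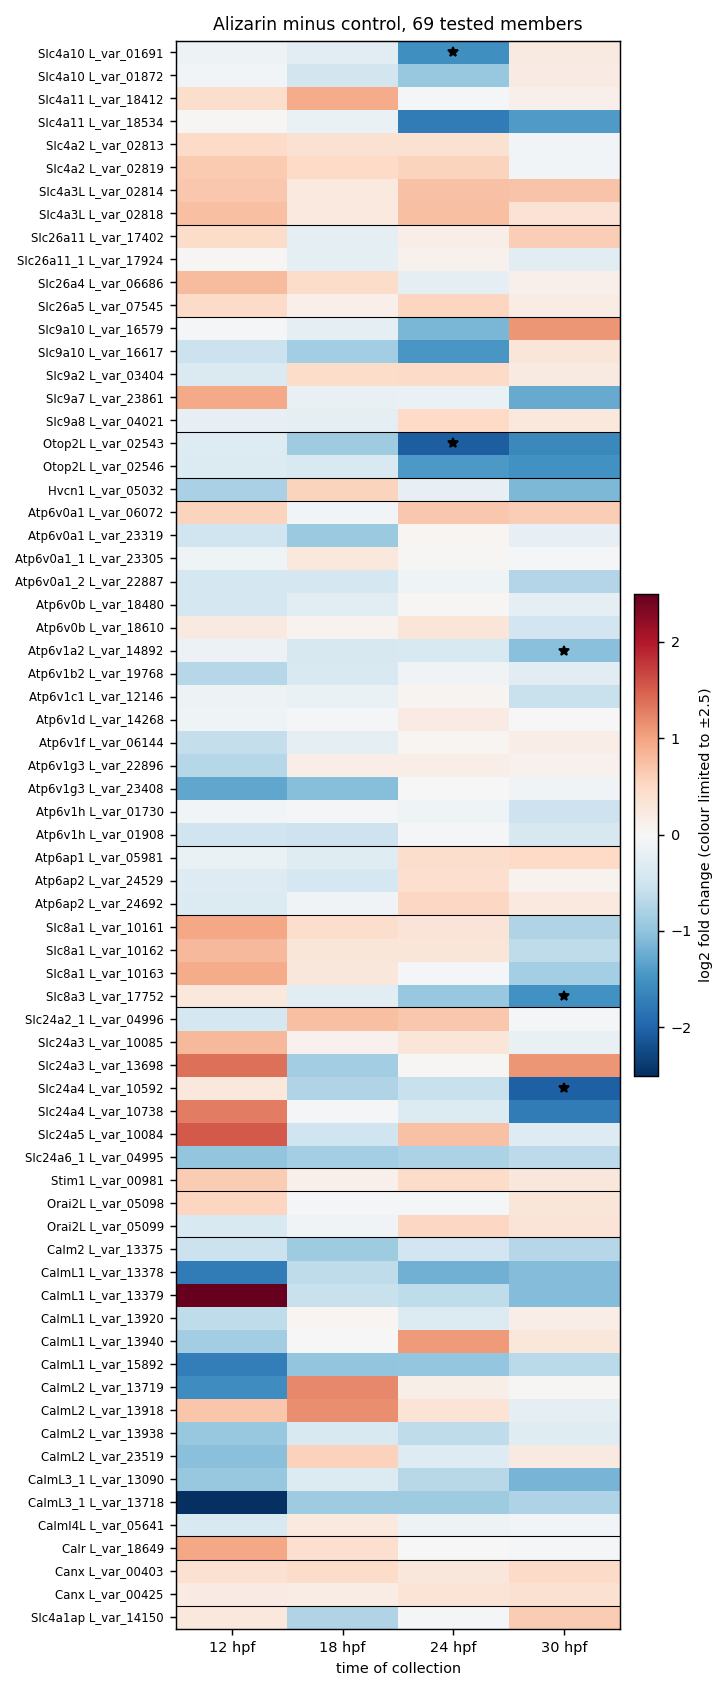
Log2 fold change of alizarin minus control (colour, limited to ±2.5) for the 69 tested members (rows, grouped by family) at 4 times of collection (columns). Stars mark an adjusted p under 0.05, and all 5 stars sit on lower levels, 2 at 24 hpf and 3 at 30 hpf.

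Markers of the skeletogenic cells were lower as a sum at 24 and 30 hpf, though not each marker was. Their 41 IDs summed to 9923 to 15049 CPM in controls at 24 hpf and 3115 to 4198 CPM in treated embryos, and to 10869 to 13375 against 3256 to 6461 CPM at 30 hpf. The 2 treated libraries of 18 hpf, 4617 and 5083 CPM, also lay below the controls, 5132 to 9559 CPM. At 12 hpf the sums overlapped, 6349 to 11085 CPM in controls and 4055 to 7393 CPM in treated embryos. Of the 34 tested, 3 were called lower at 24 hpf and 6 at 30 hpf, none higher, and none at 12 or 18 hpf. Over all genes 0.722% were called lower at 24 hpf and 2.2% at 30 hpf. The defining markers Sm50, Msp130 and Alx1 were above 0 in every group. At 24 hpf the treated libraries of each lay below the controls. At 30 hpf Sm50 held 201 to 474 CPM in treated embryos and 611 to 697 CPM in controls. Msp130 (430 to 724 against 593 to 651 CPM) and Alx1 (4.4 to 10.1 against 9.15 to 9.34 CPM) overlapped there. At 18 hpf Alx1 was higher in treated embryos (8.35 to 12.5 against 3.16 to 6.33 CPM). Pigment cell markers summed to 2271 to 3033 against 1079 to 1481 CPM at 24 hpf and 1205 to 1453 against 477 to 829 CPM at 30 hpf. Of the 6 pigment IDs tested, 1 was called lower and 1 higher at 24 hpf, and 2 lower and 1 higher at 30 hpf. Gut, ciliated and muscle marker sums overlapped between treated embryos and controls at 24 and 30 hpf. In whole embryos fewer cells of a type and less RNA per cell cannot be told apart, and the part of cell number in the lower Slc4a10, Otop2L, Slc8a3 and Atp6v1a2 levels was not tested.

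Among the bicarbonate transporters, Slc4a10 has 2 IDs. In vertebrates it couples the entry of bicarbonate to sodium. L_var_01691 stood at 336, 434 and 276 CPM in the control libraries A, B and C at 24 hpf. The alizarin libraries at 24 hpf held 98.5, 111 and 151 CPM. All 3 treated libraries lay below all 3 controls, and the level was 2.90-fold lower (log2 -1.54 ± 0.32 SE, adjusted p = 0.0229).

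The difference was not seen 6 hours later. At 30 hpf L_var_01691 was at 128, 166 and 103 CPM in controls and at 216, 139 and 109 CPM in alizarin embryos, groups that overlap (log2 0.23 ± 0.31, adjusted p = 0.786). In controls the level had itself fallen from 24 to 30 hpf by 1.40 on the log2 scale (adjusted p = 0.0327, edgeR), the 1 member called lower in that step, where 0.212% of all genes were. Treated embryos averaged 120 ± 27.4 CPM (SD, n = 3) at 24 hpf and 155 ± 54.8 CPM (SD, n = 3) at 30 hpf. The change of the treatment difference over the 4 times did not pass the test for this ID with edgeR (adjusted p = 0.167) and did with DESeq2 (adjusted p = 0.0285).

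The second Slc4a10 ID, L_var_01872, had the same order of groups at 24 hpf without passing the test. Its controls held 233, 257 and 386 CPM and its treated libraries 125, 167 and 160 CPM, with no overlap (log2 -0.95 ± 0.39, adjusted p = 0.335). At 30 hpf the ranges overlapped, 86.5 to 132 CPM against 89.2 to 148 CPM. In controls this ID was also lower at 30 than at 24 hpf, without passing the test (log2 -1.44 ± 0.40, adjusted p = 0.0975, edgeR). Across the 23 libraries the log2 levels of both IDs had r = 0.611, a description over libraries that share time and treatment. The call for L_var_01691 was lost without control 24 hpf B (adjusted p = 0.138), without alizarin 24 hpf A (0.148) or without alizarin 24 hpf B (0.108).

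An Slc4a11 ID had a lower mean in treated embryos at 24 hpf without passing the test, and another Slc4a11 ID showed no such difference. The first, L_var_18534, named after its values were seen, held 0.49, 3.26 and 2.25 CPM in controls at 24 hpf and 0.108 to 1.002 CPM in treated embryos, groups that overlap (log2 -1.76 ± 0.74, adjusted p = 0.349). These levels rest on 5, 37 and 22 counts in controls and 8, 13 and 1 in treated libraries. The other, L_var_18412, averaged 0.899 CPM in controls and 0.881 CPM in treated embryos at 24 hpf.

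Slc4a2 and Slc4a3, chloride-bicarbonate exchangers in vertebrates, lie in 2 IDs each, and Slc4a3L L_var_02818 was the 1 member that was higher in the mean of the 4 treatment differences. At 12 hpf it held 137, 64.5 and 56.2 CPM in controls and 130, 167 and 136 CPM in treated embryos, so control A lay inside the treated range. At 24 hpf it held 12.9, 11.6 and 14 CPM in controls and 27, 20 and 18 CPM in treated embryos, without overlap. The mean difference was 1.44-fold (log2 0.53 ± 0.15, adjusted p = 0.0385), and 2.11% of all genes were called higher in that mean. The call was lost in 16 of the 23 fits that left out 1 library (adjusted p 0.0526 to 0.0839). These were the fits without control 12 hpf B or C, 18 hpf A or C, 24 hpf A or B, or 30 hpf A, B or C, and without alizarin 12 hpf B, 18 hpf B or C, 24 hpf A or B, or 30 hpf B or C. Without control 12 hpf A, 7 members were called at 12 hpf, where 4.97% of all genes were called in the same fit, with both Slc4a2 IDs, Slc4a3L L_var_02818 and Slc24a3 L_var_13698 higher and Atp6v1g3 L_var_23408, CalmL2 L_var_23519 and CalmL1 L_var_15892 lower. None of the 4 Slc26a genes, a family of anion exchangers, was called at any time in the edgeR fit of all 23 libraries without the letter block. Their log2 differences lay between -0.25 and 0.80.

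The proton channel Otop2L fell with alizarin. Otopetrins let protons cross a membrane down their gradient, and 2 IDs carry the name. L_var_02543 held 20.2, 20.7 and 13.5 CPM in controls at 24 hpf and 5.42, 5.09 and 2.38 CPM in treated embryos. It was 4.18-fold lower (log2 -2.06 ± 0.48, adjusted p = 0.0451). At 30 hpf it held 19.3, 17 and 12.3 CPM in controls and 9.43, 4.22 and 2.44 CPM in treated embryos (log2 -1.61 ± 0.48, adjusted p = 0.0688). The groups did not overlap at either time, and the second difference missed the threshold.

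L_var_02546 had the same layout at a separate ID. Controls held 9.31, 8.37 and 11.1 CPM at 24 hpf and 11, 11.8 and 13 CPM at 30 hpf. Treated embryos held 2.63, 5.78 and 2.17 CPM, then 4.48, 4.45 and 3.67 CPM. Every treated library lay below every control at both times (log2 -1.43 ± 0.42 and -1.50 ± 0.43, adjusted p = 0.128 and 0.0558). In the mean over the 4 times both IDs fell, L_var_02543 by 1.22 ± 0.25 on the log2 scale (adjusted p = 0.00702) and L_var_02546 by 0.91 ± 0.22 (adjusted p = 0.0183). The 2 IDs had r = 0.815 over the 23 libraries. The mean call of L_var_02543 was kept in all 23 fits that left out 1 library, and that of L_var_02546 was lost only without alizarin 18 hpf B (adjusted p = 0.056).

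The 24 hpf call of L_var_02543 lay close to the threshold. It was lost in 13 of the 23 fits (adjusted p 0.0508 to 0.182), namely without any 1 of the 6 libraries of 24 hpf, without control 12 hpf C, 18 hpf A or B, or 30 hpf A, B or C, and without alizarin 30 hpf B.

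**Figure D2:**
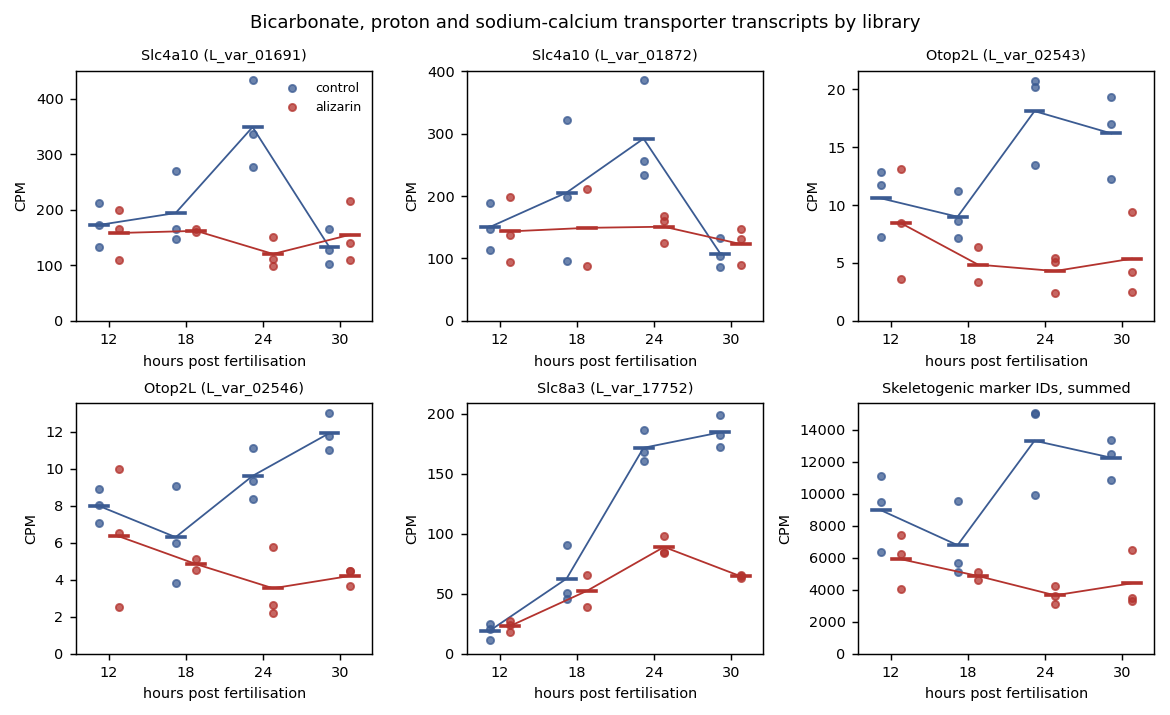
CPM per library against hours post fertilisation for 5 transporter IDs and for the summed CPM of 41 skeletogenic marker IDs. Points are libraries (controls in blue, alizarin in red), bars are group means joined by lines. Treated libraries of Slc8a3 at 30 hpf (62.8 to 65.4 CPM) lie far below the controls (172 to 199 CPM), while those of Slc4a10 L_var_01691 separate at 24 hpf and overlap at 30 hpf.

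No other proton channel or proton exchanger was called for alizarin in the edgeR fit of all 23 libraries without the letter block. Hvcn1, the voltage-gated proton channel, held 9.97, 9.47 and 8.1 CPM in controls at 30 hpf and 4.48, 3.76 and 4.4 CPM in treated embryos, with no overlap (log2 -1.12 ± 0.34, adjusted p = 0.0745). At 18 hpf its groups had the opposite order, 5.85 to 6.21 CPM in controls and 7.69 to 9.83 CPM in treated embryos (adjusted p = 0.946). None of the 5 Slc9a sodium-proton exchangers was called. Slc9a7, which in mammals exchanges cations for protons in the Golgi region, held 9.47 to 13.6 CPM in controls at 30 hpf and 3.88 to 6.48 CPM in treated embryos (log2 -1.25 ± 0.42, adjusted p = 0.11). Slc9a8 held 8.49 to 8.69 CPM in controls and 8.55 to 13.2 CPM in treated embryos at 30 hpf (log2 0.26 ± 0.31, adjusted p = 0.742).

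The vacuolar proton pump (V-ATPase) uses ATP to move protons into organelles or out of the cell, with a V1 head that splits ATP and a V0 ring in the membrane. Of its 15 IDs, 1 was called at 30 hpf. Atp6v1a2, named for the catalytic A subunit of the head, held 50.7, 53.6 and 40.7 CPM in controls and 20.3, 28 and 21.7 CPM in treated embryos. It was 2.07-fold lower (log2 -1.05 ± 0.26, adjusted p = 0.0351), and 0.49 ± 0.14 lower on the log2 scale in the mean over times (adjusted p = 0.0391). Atp6v1b2, the B subunit that forms the head together with A, held 132 to 159 CPM in controls and 91 to 152 CPM in treated embryos at 30 hpf, overlapping ranges (log2 -0.26 ± 0.24, adjusted p = 0.656). The median log2 difference over the 15 IDs at 30 hpf was -0.25, with 12 below 0 and 3 above, and the 3 accessory Atp6ap IDs were all above 0. The 30 hpf call of Atp6v1a2 was lost on leaving out any 1 of the 6 libraries of 30 hpf (adjusted p 0.0606 to 0.146). The mean call was lost in 12 of 23 fits (0.0528 to 0.0892), those without control 12 hpf B, 18 hpf C, 24 hpf A or C, or 30 hpf A or B, and those without alizarin 12 hpf B, 18 hpf B or C, 24 hpf A, or 30 hpf A or C.

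Among calcium exchangers, Slc8a3 was lower in treated embryos at 30 hpf, with the smallest p of the members there. Slc8 proteins exchange sodium for calcium across the cell surface. In controls Slc8a3 (L_var_17752) rose from 24.8, 11.7 and 20.6 CPM at 12 hpf to 168, 186 and 160 CPM at 24 hpf, and stood at 199, 182 and 172 CPM at 30 hpf. Treated embryos started at 23.4, 18.3 and 27.2 CPM at 12 hpf, within or just above the control range, and at 18 hpf their 39.1 and 65.5 CPM overlapped the 45.8 to 90.8 CPM of controls. At 24 hpf they held 83.8, 84.8 and 97.8 CPM (log2 -0.95 ± 0.28, adjusted p = 0.128), and at 30 hpf 62.8, 64.6 and 65.4 CPM. The 30 hpf level was 2.87-fold lower than in controls (log2 -1.52 ± 0.28, adjusted p = 0.006).

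This was kept in each of the 23 fits that left out 1 library, with adjusted p up to 0.0366. The mean difference over times was also called (log2 -0.61 ± 0.15, adjusted p = 0.0177), and was lost only without alizarin 18 hpf B (adjusted p = 0.0811). The change of the difference over the 4 times was not called by edgeR (adjusted p = 0.109) and was by DESeq2 (adjusted p = 0.00579). The other 3 Slc8a IDs carry the name Slc8a1, and none was called for alizarin.

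The Slc24 exchangers move calcium out of a compartment against sodium, together with potassium. Slc24a4 L_var_10592 was at 3.36 CPM or less in every library. It held 3.36, 3.16 and 2.5 CPM in controls at 30 hpf and 0.64, 0.912 and 0.611 CPM in treated embryos, 4.10-fold lower (log2 -2.03 ± 0.52, adjusted p = 0.0367). At 12, 18 and 24 hpf its groups overlapped. The call was lost on leaving out any 1 of the 6 libraries of 30 hpf (adjusted p 0.0719 to 0.153). A second Slc24a4 ID, L_var_10738, named here after its values were seen, differed by -1.74 on the log2 scale at 30 hpf (adjusted p = 0.0844). At 12 hpf it differed the other way, by 1.27, with overlapping groups and no call. Slc24a6_1, whose mammalian namesake is the sodium-calcium exchanger of mitochondria, held 25.3, 28.9 and 27.5 CPM in controls and 19.2, 15.3 and 17.1 CPM in treated embryos at 30 hpf, without overlap (log2 -0.66 ± 0.37, adjusted p = 0.39). Slc24a3 L_var_13698 went the other way at 30 hpf, also without overlap and not called. It held 4.53 to 6.09 CPM in controls and 10.3 to 12.2 CPM in treated embryos. Of the 7 Slc24a IDs, 6 had a log2 difference below 0 at 30 hpf and 1 above.

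At 30 hpf the libraries with the same letter deviated from their group means together (r = 0.503, 0.663 and 0.57), while at no other time were all pairs above 0.1. With the letter as a block and the 2 groups of 30 hpf alone, 25 of the 63 members tested were called, 18 lower and 7 higher. In the same fit 18.3% of all 15273 genes were called lower and 15.2% higher. Slc8a3 (adjusted p = 6.49e-06), both Otop2L IDs (0.000141 and 0.000173), Atp6v1a2 (0.000268), Slc9a7 (0.000517), Slc24a4 L_var_10592 (0.00145) and Hvcn1 (0.00205) were among the lower ones, and Slc24a6_1 was lower as well (0.0112). The 7 higher were Slc24a3 L_var_13698 (0.000746), Slc4a3L L_var_02814 (0.00567), Atp6v0a1 L_var_06072 (0.00584), Slc26a11 L_var_17402 (0.00652), Slc4a1ap (0.0345), Canx L_var_00403 (0.0421) and Atp6ap1 (0.0498). Of the 15 proton pump IDs, Atp6v0a1_2, Atp6v1h L_var_01730 and Atp6v1c1 were also lower in this fit, and 6 Calm IDs were. Neither Slc4a10 ID was called in it.

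Calmodulin is the small calcium-binding protein that passes calcium signals to its target enzymes, and 13 IDs carry Calm names. In the mean over the 4 times 3 of them fell, among 7 of 69 members lower in all (10.1%), where 2.93% of all genes were called lower. Calm2 (L_var_13375) fell by 0.66 ± 0.14 on the log2 scale (adjusted p = 0.00943). Its controls held 73.9, 69.9 and 109 CPM at 18 hpf, 46.1, 47.5 and 44.1 CPM at 24 hpf and 31.1, 28.5 and 36.7 CPM at 30 hpf. Treated embryos held 41.6 and 49.7 CPM, then 32.4, 31 and 35.2 CPM, then 18.1, 21.7 and 18.6 CPM. The groups did not overlap at these 3 times and did at 12 hpf, and the mean call was kept in all 23 fits that left out 1 library.

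CalmL1 L_var_15892 fell by 1.09 ± 0.25 in the same mean (adjusted p = 0.0155). It held 26.5, 86.3 and 103 CPM in controls at 12 hpf and 14.2, 30.4 and 20.9 CPM in treated embryos, so control A lay inside the treated range, and only at 30 hpf were the groups apart (222 to 358 CPM against 138 to 216 CPM). CalmL3_1 L_var_13718, at 9.29 CPM or less, fell by 1.35 ± 0.31 (adjusted p = 0.0146). Its 12 hpf difference (log2 -2.86), a part of this mean, rests on 9, 2 and 3 counts in controls and 1, 0 and 1 in treated libraries. The calls were lost without alizarin 18 hpf C for CalmL1 (adjusted p = 0.0511) and without alizarin 18 hpf B for CalmL3_1 (0.0587). CalmL1 L_var_13920, the Calm ID with the highest CPM (not divided by length), held 538, 551 and 530 CPM in controls at 30 hpf and 795, 523 and 500 CPM in treated embryos (log2 0.17 ± 0.49, adjusted p = 0.914).

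**Figure D3:**
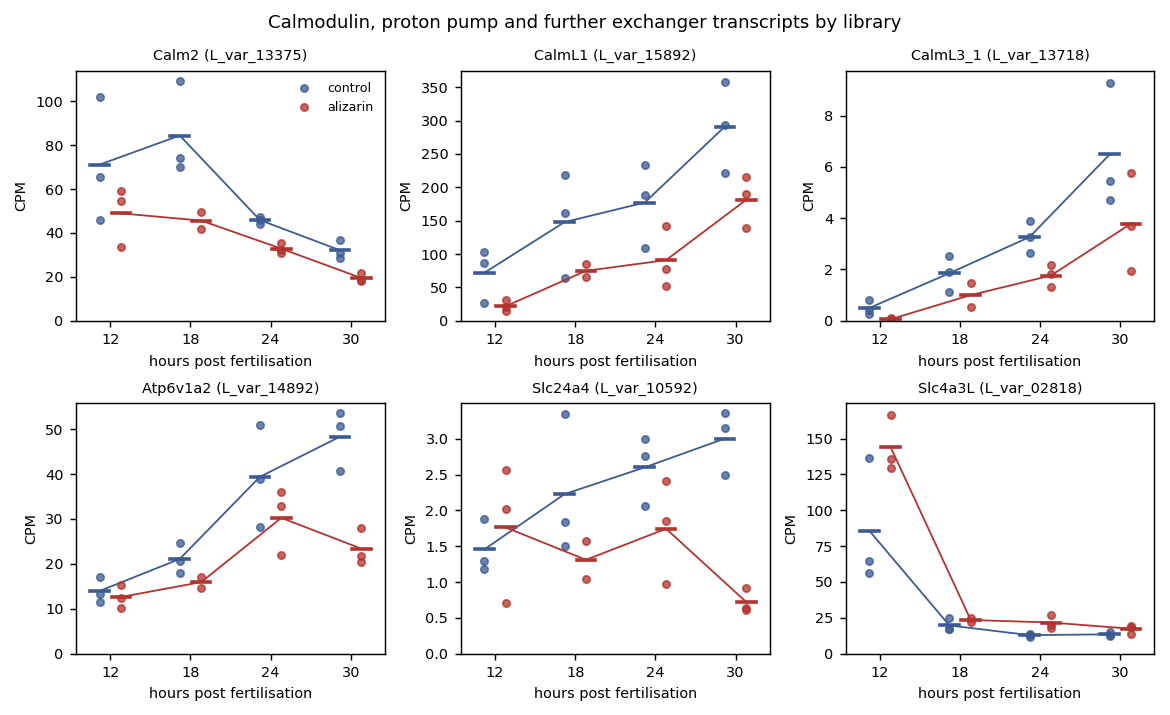
CPM per library against hours post fertilisation for 3 calmodulin IDs, Atp6v1a2, Slc24a4 L_var_10592 and Slc4a3L L_var_02818. Points are libraries (controls in blue, alizarin in red), bars are group means joined by lines. Treated Calm2 libraries lie below controls from 18 hpf on, and Slc4a3L is the panel where treated libraries lie higher at 24 hpf.

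Store-operated entry and the endoplasmic reticulum (ER) showed no call for alizarin in the edgeR fit of all 23 libraries without the letter block. In the fit of the 2 groups of 30 hpf alone with that block, Canx L_var_00403 was higher. Stim1, which senses the calcium of the ER, held 13.2 to 13.8 CPM in controls at 30 hpf and 15.2 to 18 CPM in treated embryos, apart but not called (log2 0.29 ± 0.31, adjusted p = 0.716). Orai2L L_var_05098, named for the surface channel that Stim proteins open, held 12.5 to 13.5 CPM and 14.5 to 18.9 CPM (log2 0.31 ± 0.23, adjusted p = 0.549). Calr, the calcium-binding chaperone calreticulin, held 1573 to 2278 CPM in controls at 30 hpf and 1604 to 2190 CPM in treated embryos. Canx L_var_00425, its membrane-bound relative calnexin, held 68.9 to 137 CPM and 111 to 192 CPM. No ID carried the names Atp2, Itpr or Ryr. The calcium pumps and the calcium-release receptor of the ER appear under other names, Serca, Serca_1, Pmca and Ip3r. None of these 4 IDs was called for alizarin in the edgeR fit of all 23 libraries without the letter block. At 30 hpf Serca_1 averaged 207 CPM in controls and 330 CPM in treated embryos (log2 0.67 ± 0.21, adjusted p = 0.0871). Pmca averaged 61.8 CPM in controls and 37.1 CPM in treated embryos at 30 hpf (log2 -0.73 ± 0.24, adjusted p = 0.0944). Serca averaged 30.2 CPM in controls and 15.1 CPM in treated embryos at 12 hpf (log2 -1.002 ± 0.26, adjusted p = 0.0911).

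In normal development more of these genes rose than fell. From 12 to 30 hpf in controls, 24 of 69 were higher and 12 lower, against 21% and 19.2% of all genes. The rises came in the Calm family (9 of 13), the proton pump (8 of 15), Slc24a (3 of 7) and single IDs of Slc8a, Slc9a, Atp6ap and Calr. The falls were in Slc4a (4 of 8), Slc26a (3 of 4) and single IDs of Slc9a, Hvcn, Stim, Orai and Calm. The median log2 change was 2.66 over the Calm IDs, 1.14 over the pump IDs, -1.31 over Slc4a and -1.43 over Slc26a, and 0.58 over all 69.

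Among the steepest rises were those of calmodulin-like IDs and exchangers. CalmL1 L_var_13378 went from 0, 1.17 and 0.538 CPM at 12 hpf to 259, 214 and 251 CPM at 30 hpf (log2 8.81 ± 0.81, adjusted p = 8.03e-08). CalmL1 L_var_13379 had no count in the 12 hpf controls and averaged 7.90 CPM at 30 hpf, which is at least 68.7-fold higher with a floor of 3 counts over the group. CalmL3_1 L_var_13090 rose from 0.639, 2.98 and 0.673 CPM to 128, 118 and 150 CPM (log2 6.55 ± 0.65, adjusted p = 2.04e-07). Slc24a6_1 rose from 0.274, 0.908 and 0.135 CPM to 25.3, 28.9 and 27.5 CPM (log2 5.95 ± 0.50, adjusted p = 2.33e-08). In each the 12 and 30 hpf groups were far apart, and Slc8a3 rose 9.68-fold (log2 3.27 ± 0.30, adjusted p = 8.03e-08). Calr rose 10.9-fold (log2 3.45 ± 0.63, adjusted p = 0.00019), and Slc9a7 9.27-fold (adjusted p = 1.55e-05, edgeR). Atp6v1b2 rose 3.55-fold (adjusted p = 6.83e-06, edgeR) and Atp6v1a2 3.47-fold (adjusted p = 2.67e-05, edgeR).

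The chloride-bicarbonate exchanger-like genes fell early. Slc4a3L L_var_02818 went from 137, 64.5 and 56.2 CPM at 12 hpf to 17.2, 24.6 and 17.1 CPM at 18 hpf and 15, 12.8 and 12.4 CPM at 30 hpf (log2 -2.68 ± 0.30 over the span, adjusted p = 8.25e-07). Its namesake L_var_02814 fell by 3.26 ± 0.43 on the log2 scale (adjusted p = 6.56e-06), and the 2 IDs had r = 0.978 over the 23 libraries. Slc26a11_1, whose mammalian namesake carries sulfate, went from 54, 80.4 and 116 CPM to 27.6, 20.4 and 19.3 CPM (log2 -1.90 ± 0.28, adjusted p = 1.74e-05). Hvcn1 fell from 21.4, 18.4 and 34.7 CPM at 12 hpf to 5.85, 5.92 and 6.21 CPM at 18 hpf, and Stim1 fell by 1.12 ± 0.31 over the span (adjusted p = 0.00705).

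Most calls lay between 12 and 18 hpf, a step looked at after values were seen. In it 12 of 69 members (17.4%) were higher and 8 (11.6%) lower, against 8.46% and 6.47% of all genes. From 18 to 24 hpf 5 (7.25%) were higher and none lower, against 4.02% and 0.961% of all genes. From 24 to 30 hpf 3 (4.35%) were higher, against 0.717% of all genes. Slc4a10 L_var_01691 was the 1 called lower, against 0.212% of all genes. Slc24a6_1, CalmL1 L_var_13378 and CalmL3_1 L_var_13090 were higher in both later steps.

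**Figure D4:**
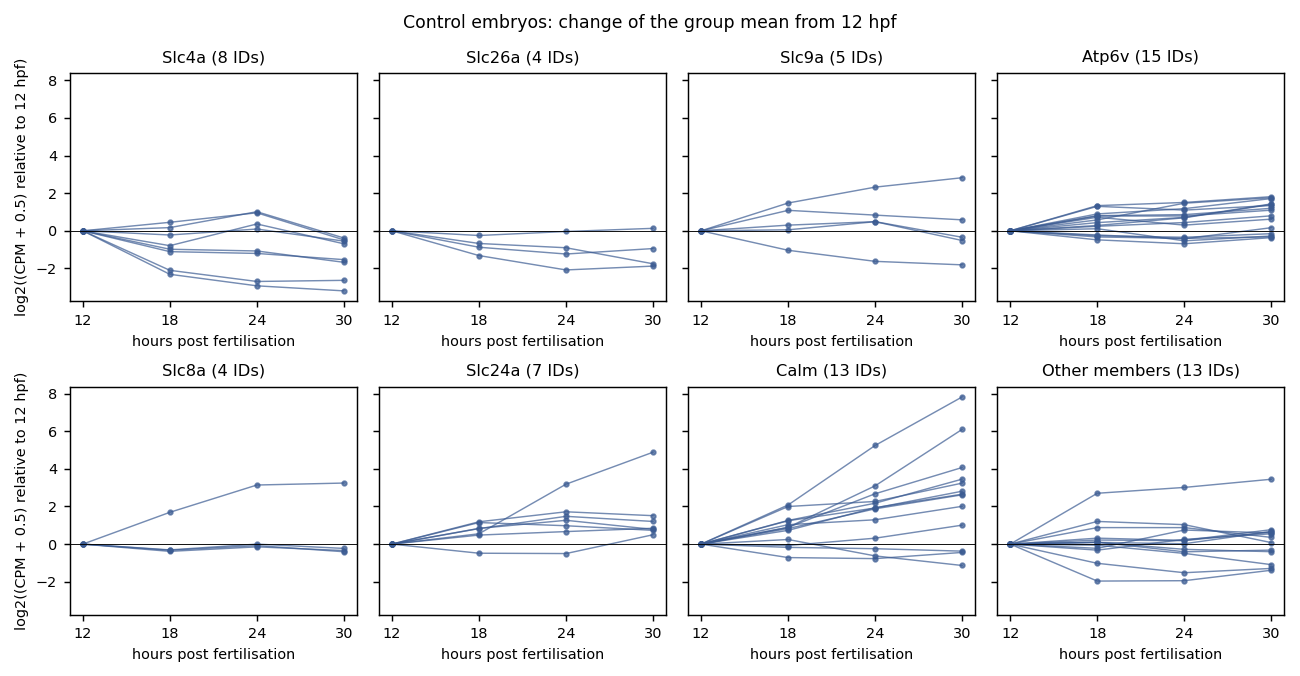
Change of the control group mean from 12 hpf, as log2 of CPM plus 0.5, against hours post fertilisation, 1 line per ID and 1 panel per family (the last panel holds the smaller families). Most Calm and Atp6v lines end above 0 at 30 hpf, and all 8 Slc4a lines end below it.

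Other genes of the same processes were counted beside the members. Of 6 carbonic anhydrase IDs, enzymes that turn carbon dioxide into bicarbonate, 5 were tested and 1 was called, lower at 24 and 30 hpf (Cara7LA, log2 -3.30 ± 0.61 and -2.92 ± 0.60, adjusted p = 0.0112 and 0.0113, edgeR). Of 66 IDs taken by name patterns for voltage-gated, TRP or polycystin channels, not all of them channels, 43 were tested. At 30 hpf 1 was lower (Pkd2L1_1), in the mean over times 3 were lower (Pkdh1l1, Trpc5_6 and Trpc6_1), and none was higher. Over all genes 0.722% were called lower at 24 hpf, 2.2% at 30 hpf and 2.93% in the mean. Of 9 calcium effector IDs none was called for alizarin. The name patterns also took in genes of other kinds, such as the kinase PkdccL and the protease subunit Ncstn.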

How the data were processed

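The labels' protocols name TRIzol for RNA extraction and a DNBSEQ kit for mRNA libraries of whole embryos. The aligner was STAR 2.7.1a, per the submitters' processing notes. The genome build, counting tool and strand setting are not given in the sources used here. The values are whole-number read counts for each gene ID, unnormalised as deposited. The table's 109578 lines repeat a gene for each protein match. They reduced to 27232 IDs with 0 conflicts, 1 of which had unreadable counts and was dropped. The 23 count columns matched samples by name, and 0 columns were left unmapped. No 2 libraries of a group agreed within sampling noise (chi-square per degree of freedom at least 13.7).

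Genes passing filterByExpr (minimum count 10, 8 groups; 18419 genes) were scaled with TMM and fitted with 8 group means by robust edgeR quasi-likelihood (15 residual degrees of freedom, common coefficient of variation 0.423). The SE is the absolute log2 change over the root of F. Intervals between libraries are SDs, and counting error is not given separately. The method was tested on simulated counts. An adjusted p above the threshold does not show that levels were equal. Versions were R 4.3.3, edgeR 4.0.16, limma 3.58.1, DESeq2 1.42.0, Python 3.11.15 and matplotlib 3.10.9.

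The members, lists and rule for named genes were chosen with earlier results of these data known. Named were both Slc4a10 and Otop2L IDs and Slc8a3, the called members (at most 10 per comparison, by smallest p), and the ID of highest mean CPM in each family. Further genes in the text were chosen after their values were seen. The letters A to C pair libraries at 30 hpf by the correlation of deviations, where all 3 pairs exceeded 0.1. The labels say nothing of what a letter means. Alternatives were DESeq2, other scalings and filters, a letter block, only the 2 groups compared, summed IDs and leaving out each library. No annotation in hand matched the IDs, so no positions or sequences are given. Some results of the other gene lists are not reported here.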

Additional observations from a re-analysis of the deposited data

How the results depend on the processing

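DESeq2 called 1 member at 12 hpf, 4 at 24 hpf, 8 at 30 hpf, 15 in the mean over times and 2 for the difference between times, against 0, 2, 3, 8 and 0. Of the genes with an adjusted p it called 4.42%, 2.95%, 6.66%, 9.24% and 4.16%. With only the 2 groups compared there were 1 at 24 hpf and 11 at 30 hpf (0.953% and 13.1% of all genes). Upper quartile scaling left 1 at 24 hpf (0.63% of all genes), without Otop2L L_var_02543. Over all times 7 of 11 same-letter pairs correlated above 0.1 (-0.242 to 0.663). The replicate block over all libraries gave 2 calls at 24 hpf, 4 at 30 hpf and 9 in the mean, where it called 1.01%, 3.76% and 6.29% of all genes. The replicate block within the 2 groups gave 0 at 24 hpf and 25 at 30 hpf, where it called 0.426% and 33.5% of all genes. The cause of these shifts was not tested.

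Leaving out 1 library gave 0 to 7 calls at 12 hpf, 0 to 0 at 18 hpf, 0 to 2 at 24 hpf, 1 to 5 at 30 hpf, 3 to 14 in the mean, 0 to 1 for the difference between times, and 31 to 36 for control 30 against 12 hpf. The mean count was lowest without alizarin 18 hpf B and highest without control 12 hpf A. The fit without control 12 hpf A also gave the 7 calls at 12 hpf. It called 4.97% of all genes at 12 hpf and 6.92% in the mean. Slc4a10 L_var_01691 at 30 hpf changed sign without alizarin 30 hpf A (log2 -0.087, adjusted p = 0.942, edgeR), and ranged from -0.087 to 0.43. Of 1036 checks of named genes, 946 kept direction and call, 69 lost the call and 20 gained it. Among the 946 were 32 checks that reused the main fit unchanged, so they could not differ. Many others left out a library outside the groups compared, so the 946 is no measure of stability. Of the member calls at 24 and 30 hpf, only that of Slc8a3 was kept in all 23 fits that left out 1 library. With 2 or 3 libraries a group, genes of few counts such as Slc24a4 L_var_10592 are the least precise.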

Other observations

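Several names held IDs that did not run together. Over the 23 libraries the log2 levels of both Orai2L IDs had r = -0.579 and those of both Atp6v0a1 IDs r = -0.364, a description over libraries that share time and treatment. In controls from 12 to 18 hpf Orai2L L_var_05098 rose by 0.91 on the log2 scale (adjusted p = 0.00996, edgeR) while L_var_05099 fell by 1.10 (adjusted p = 0.0185). Over the same step Atp6v0a1 L_var_23319, a membrane subunit of the proton pump, rose by 1.34 (adjusted p = 0.00243, edgeR). Serca_1, a calcium pump ID named outside the families, fell by 1.30 from 12 to 30 hpf in controls (adjusted p = 6.92e-05, edgeR). Of the 43 tested IDs taken by the channel name patterns, 20 were higher and 6 lower over that span, against 21% and 19.2% of all genes. The higher ones included PkdccL, which is a kinase and not a channel. Trpm3L was among the lower (log2 -4.14 ± 0.51).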
